A study of Mus musculus with 12 samples.

Results

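The cell cycle and DNA replication genes described here are 57 genes of S phase and mitosis, chosen by a list of symbols that mark dividing cells, and all 57 were found among the 53801 genes of the count table. They were measured by RNA-seq in eosinophils of mouse bone marrow and blood, with 12 libraries in 4 groups of 3. The control mice carried eoCre and Il5tg, and the Atg5-knockout mice carried Atg5flox/flox, eoCre and Il5tg, so that the Cre recombinase and the Il5 transgene were common to every library. eoCre is driven from the eosinophil peroxidase gene Epx, which is switched on during eosinophil development, and Il5tg is driven from Cd3d, a T cell gene, and raises eosinophil numbers. According to the study's methods, eosinophils were enriched by removing cells that bound lineage antibodies, among them those to CD8α, CD90.2 and Ly6G, and blood additionally passed a density step and a lysis of red cells. Cells without these antigens, such as red cell precursors, are not bound by the antibodies. The series' design names 3 mice of each genotype for both tissues, so that bone marrow and blood libraries would share mice, but which libraries did so, and the ages of the mice, are not given in the sources used here. The comparisons between tissues treat the libraries as independent.

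Eosinophils are granulocytes that arise in the bone marrow from dividing progenitors, and a mature eosinophil has left the cell cycle before it enters the blood. In a dividing cell, the MCM helicase is loaded on origins in G1, ribonucleotide reductase and thymidylate synthase supply nucleotides in S phase, and PCNA clamps the polymerases at the fork. Cyclin B with CDK1 then drives entry into mitosis, kinesins build the spindle, and the spindle checkpoint holds the anaphase-promoting complex until the chromosomes are attached. Transcripts of these genes rise in waves. The replication genes do so under E2F factors at G1/S. The mitosis genes do so under B-MYB and FOXM1 in G2, through a CHR element that often lies next to CCAAT boxes. The 57 genes were grouped by role into licensing and helicase (11 genes), nucleotide supply (4), fork, chromatin and repair (5), G1/S cyclins, Cdk2 and cell cycle transcription factors (7), mitotic cyclins, kinases and chromosomal passengers (11), spindle checkpoint and anaphase (6), kinesins, spindle and midzone (8), and centromere and mitotic chromosome (5).

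Promoter letters were read for the 46 members that had a RefSeq window (GRCm38.p6), over the 250 bases before the start site. In the following 8 promoters, 1 for each role, the member of highest mean level was taken, and capitals mark a CHR (TTTGAA or TTCGAA), the CCAAT box (CCAAT) or an E2F site (TTTCCCGC, TTTCGCGC, TTTGCCGC or TTTGGCGC) on either strand. They are shown because they let the S phase and the mitosis genes be compared by the motifs of the 2 waves of transcription.
Mcm6, licensing and helicase, lay at chr1:128359706-128359955, minus strand.
Mcm6: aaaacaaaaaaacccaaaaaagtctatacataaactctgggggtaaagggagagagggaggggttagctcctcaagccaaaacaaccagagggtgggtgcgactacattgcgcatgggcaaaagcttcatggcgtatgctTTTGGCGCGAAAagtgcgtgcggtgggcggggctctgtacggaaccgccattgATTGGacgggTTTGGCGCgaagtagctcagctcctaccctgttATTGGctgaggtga
Rrm1, nucleotide supply, lay at chr7:102441445-102441694, plus strand.
Rrm1: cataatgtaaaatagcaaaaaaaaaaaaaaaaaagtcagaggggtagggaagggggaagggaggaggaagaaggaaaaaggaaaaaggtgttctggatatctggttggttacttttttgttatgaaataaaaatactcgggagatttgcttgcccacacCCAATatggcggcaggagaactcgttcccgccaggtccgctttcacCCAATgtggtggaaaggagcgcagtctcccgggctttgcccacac
Pcna, the fork, lay at chr2:132253181-132253430, minus strand.
Pcna: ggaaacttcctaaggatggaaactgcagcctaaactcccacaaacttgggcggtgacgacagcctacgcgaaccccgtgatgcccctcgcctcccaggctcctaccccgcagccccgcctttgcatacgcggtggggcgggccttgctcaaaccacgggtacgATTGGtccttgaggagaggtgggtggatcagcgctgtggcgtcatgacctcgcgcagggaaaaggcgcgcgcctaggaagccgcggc
Cdk2, of the G1/S group, lay at chr10:128705052-128705301, minus strand.
Cdk2: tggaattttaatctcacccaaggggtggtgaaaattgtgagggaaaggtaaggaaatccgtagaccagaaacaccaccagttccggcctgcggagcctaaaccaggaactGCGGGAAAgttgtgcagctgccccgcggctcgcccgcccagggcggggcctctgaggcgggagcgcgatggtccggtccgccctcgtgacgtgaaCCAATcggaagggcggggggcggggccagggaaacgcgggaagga
Cdk1, of the mitotic kinases, lay at chr10:69352913-69353162, minus strand.
Cdk1: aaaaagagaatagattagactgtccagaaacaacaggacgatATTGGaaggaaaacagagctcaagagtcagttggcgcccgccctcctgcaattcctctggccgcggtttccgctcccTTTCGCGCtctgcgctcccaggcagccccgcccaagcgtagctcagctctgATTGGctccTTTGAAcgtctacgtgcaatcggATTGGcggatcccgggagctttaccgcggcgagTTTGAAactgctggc
Ube2c, spindle checkpoint and anaphase, lay at chr2:164769679-164769928, plus strand.
Ube2c: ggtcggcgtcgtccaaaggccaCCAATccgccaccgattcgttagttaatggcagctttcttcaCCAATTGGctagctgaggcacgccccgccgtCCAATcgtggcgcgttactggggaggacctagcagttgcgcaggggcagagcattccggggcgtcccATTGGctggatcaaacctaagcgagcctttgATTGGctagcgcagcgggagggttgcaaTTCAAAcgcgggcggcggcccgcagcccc
Kif11, of the kinesins, lay at chr19:37376132-37376381, plus strand.
Kif11: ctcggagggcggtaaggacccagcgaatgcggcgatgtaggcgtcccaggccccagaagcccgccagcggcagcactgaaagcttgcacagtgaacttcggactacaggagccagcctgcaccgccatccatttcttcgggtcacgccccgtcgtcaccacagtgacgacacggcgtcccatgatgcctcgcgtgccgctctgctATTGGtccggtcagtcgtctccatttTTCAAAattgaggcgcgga
Mki67, of the mitotic chromosome, lay at chr7:135716380-135716629, minus strand.
Mki67: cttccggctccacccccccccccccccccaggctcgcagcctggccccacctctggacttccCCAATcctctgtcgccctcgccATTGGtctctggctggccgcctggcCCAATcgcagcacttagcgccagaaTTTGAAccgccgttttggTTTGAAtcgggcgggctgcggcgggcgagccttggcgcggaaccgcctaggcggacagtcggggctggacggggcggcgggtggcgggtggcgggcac

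A CHR stood in 4 of these 8 promoters, those of Cdk1, Ube2c, Kif11 and Mki67, and an E2F site in those of Mcm6, Cdk2 and Cdk1. All 8 held a CCAAT box, and in the Mcm6 promoter 2 E2F sites on opposite strands shared 4 of their bases. Over the members with a window, a CHR was found in 9 of the 25 mitosis genes (36%) and in 3 of the 16 replication genes (18.8%), against 15.7% of the windows of all 19134 genes. A CCAAT box was found in 20 of the 25 mitosis genes (80%) and 10 of the 16 replication genes (62.5%), against 35.3% of all genes. Both together stood in 8 of the 25 mitosis genes (32%) and 2 of the 16 replication genes (12.5%), against 5.74% of all genes. For the E2F site the order was the other way, with 4 of the 16 replication genes (25%), 1 of the 25 mitosis genes (4%) and 2.34% of all genes. Such matches are letters in a window and do not show that a factor was bound.

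Total counts lay between 18885052 and 30270166 per library. Levels are given as CPM, the count of a gene scaled to the library's total with TMM factors over all 12 libraries, in the order of replicates 1, 2 and 3. Atg5 itself was at 40.5 to 45.4 CPM in control and 30.6 to 33.9 CPM in Atg5-knockout bone marrow, where the groups did not overlap, and at 40.1 to 58.8 and 36.7 to 52.5 CPM in blood, where they did. Since the count of Atg5 is taken over the whole gene, a deletion of 1 part of it is not checked by these values. All 10 eosinophil markers were detected in every group. Control blood replicate 1 stood apart, with 14.6% of its counts on red cell genes and at most 1.42% in any other library. B cell and T cell genes were highest in the blood libraries numbered 1, with 0.0408% and 0.0190% of counts in control and 0.0902% and 0.0347% in Atg5-knockout blood, against at most 0.00380% and 0.00593% in the other blood libraries. The blood comparisons below are therefore also given without these libraries.

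The summed level of the 57 genes was 5163, 4747 and 4755 CPM in control bone marrow and 5916, 6369 and 5347 CPM in Atg5-knockout bone marrow. In blood it was 719.6, 518.0 and 605 CPM in control and 649.6, 519 and 509 CPM in Atg5-knockout libraries. The bone marrow libraries were thus all far above the blood libraries, and in blood the highest sum of each genotype was in the library numbered 1. As a share of all counts, the genes took 0.536 ± 0.0219% (SD, n = 3) in control and 0.646 ± 0.0716% (SD, n = 3) in Atg5-knockout bone marrow, and 0.0537 ± 0.00793% (SD, n = 3) and 0.0533 ± 0.0118% (SD, n = 3) in blood. In bulk RNA, fewer dividing cells and less of these RNAs in each cell cannot be told apart. Per kilobase of exon, the highest levels in control bone marrow were those of Pcna (82.8 CPM per kb), Rrm2 (66.6), Ccnb2 (66.0) and Ube2c (62.4), and the lowest was that of Fen1 (0.834). In control blood Pcna was again the highest, at 29.99 CPM per kb, followed by Gmnn at 13.1 and Mcm4 at 11.8.

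**Figure D1:**
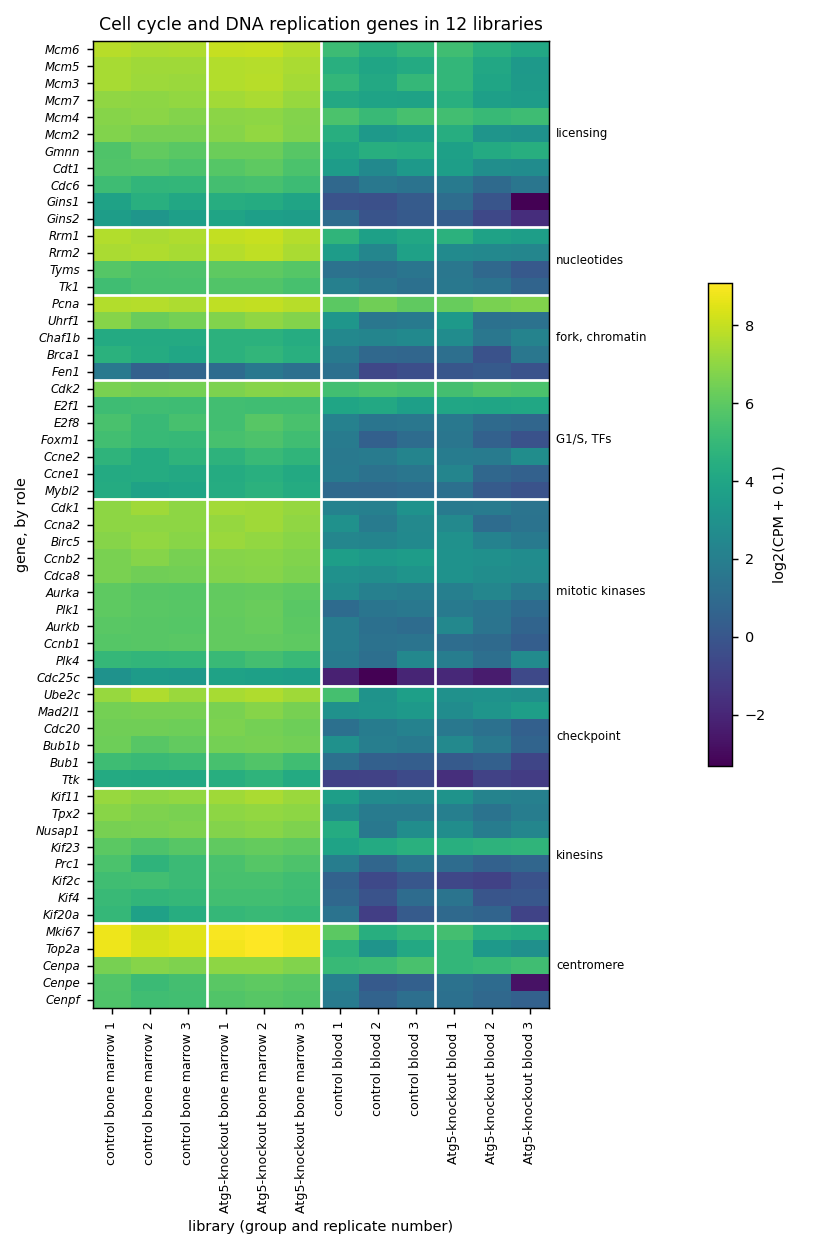
Level of each of the 57 genes (rows, grouped by role, log2 of CPM + 0.1) in each of the 12 libraries (columns). The 6 bone marrow columns are brighter than the 6 blood columns for nearly every gene, and the step is small for Cdk2, E2f1, Pcna, Mcm4, Kif23 and Cenpa.

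The first comparison asked which of these genes differed between bone marrow and blood eosinophils within a genotype. In control mice, 56 of the 57 genes were lower in blood at an adjusted p under 0.05 (edgeR's quasi-likelihood test, Benjamini-Hochberg over 13669 genes), where 18% of all tested genes were called lower and 16.2% higher, and none of the 57 was higher. The change was beyond 2 on the log2 scale for 48 of them, against 5.19% of all genes. The median log2 fold change, blood over bone marrow, was -3.67, against -0.003 for all genes, and it ran from -6.77 for Cdc25c, the phosphatase that activates CDK1, to -0.84 for Fen1, a flap endonuclease. In Atg5-knockout mice, all 57 were lower in blood, where 24.1% of all 13853 tested genes were called lower and 23.5% higher, and 49 were lower by more than 2 on the log2 scale, against 6.13% of all genes. Their median was -4.31, against -0.010 for all genes, from -6.19 for Kif2c, a microtubule depolymerase of the centromere, to -1.17 for Cdk2. Leaving out control blood replicate 1, all 57 were called lower in control mice, with a median of -3.93. Leaving out Atg5-knockout blood replicate 1, all 57 were called lower in Atg5-knockout mice, with a median of -4.58.

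**Figure D2:**
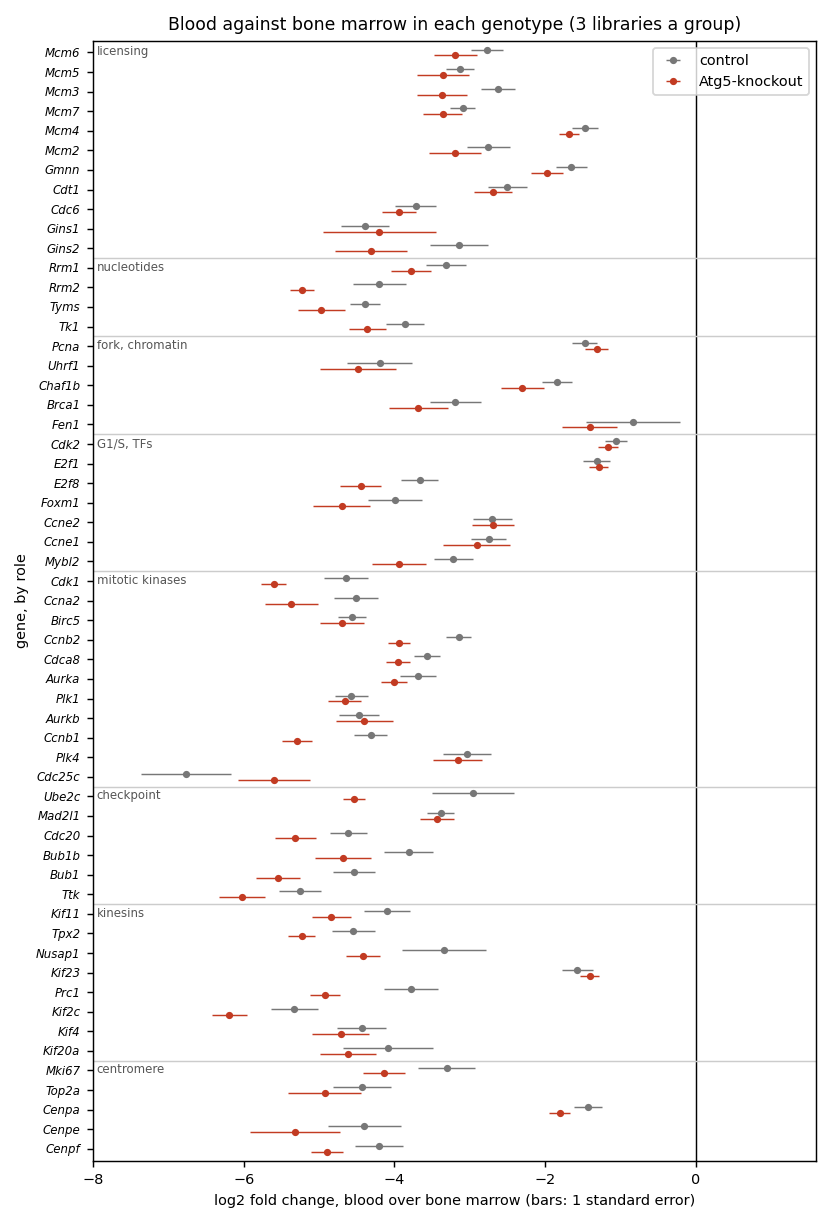
Log2 fold change of blood over bone marrow for each of the 57 genes in control (grey) and Atg5-knockout (red) mice, with bars of 1 standard error (edgeR, 3 libraries a group), grouped by role. All points lie below 0, and Cdk2, E2f1, Pcna, Mcm4, Kif23 and Cenpa lie nearest to it apart from Fen1.

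All 11 licensing and helicase genes fell in both genotypes, with median log2 fold changes of -2.78 in control and -3.36 in Atg5-knockout mice. Mcm6, a subunit of the MCM helicase, was at 216, 191 and 194 CPM in control bone marrow and 257, 267 and 207 CPM in Atg5-knockout bone marrow. In blood it was at 36.5, 21.9 and 30.4 CPM in control and 38.8, 23.2 and 17.1 CPM in Atg5-knockout mice. No blood library reached a bone marrow library, and the gene changed by -2.78 (SE 0.21, adjusted p = 3.89e-05) in control and -3.19 (SE 0.28, adjusted p = 4.39e-05) in Atg5-knockout mice on the log2 scale, SE being the standard error. Its partner subunit Mcm5 was at 179, 162 and 160.3 CPM and 204, 209 and 180.0 CPM in control and Atg5-knockout bone marrow, and at 22.6, 15.8 and 19.4 CPM and 29.8, 17.3 and 9.92 CPM in blood. Mcm3 was at 174, 155 and 151 CPM and 204, 216 and 168 CPM in the same order, and at 30.1, 17.95 and 30.4 CPM and 29.6, 15.8 and 10.9 CPM in blood. The log2 fold changes were -3.13 and -3.36 for Mcm5 and -2.63 and -3.37 for Mcm3. The fitted fall was not equal for the subunits of this one hexamer, a difference that was not tested, since Mcm4 changed by -1.47 (SE 0.17, adjusted p = 4.02e-04) and -1.68 (SE 0.13, adjusted p = 2.36e-05). Gmnn, which blocks relicensing, changed by -1.65 and -1.97, whereas Gins1, a subunit of the GINS complex of the active helicase, changed by -4.39 and -4.20.

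The 4 genes of nucleotide supply fell in both genotypes, with medians of -4.03 and -4.67. Rrm1, the large subunit of ribonucleotide reductase, was at 199, 182 and 194 CPM in control and 245, 268 and 209 CPM in Atg5-knockout bone marrow, and at 27.6, 13.4 and 17.6 CPM and 25.1, 14.1 and 12.5 CPM in blood. Rrm2, its S phase subunit, was at 182, 192 and 179 CPM and 209.9, 236 and 184 CPM in bone marrow, and at 11.6, 5.02 and 13.9 CPM and 6.13, 5.42 and 5.06 CPM in blood. The subunits of this one enzyme had unequal fitted falls, Rrm1 with a log2 fold change of -3.31 (SE 0.27, adjusted p = 4.97e-05) and -3.78 (SE 0.27, adjusted p = 1.31e-05) in control and Atg5-knockout mice, and Rrm2 with -4.20 (SE 0.35, adjusted p = 5.87e-05) and -5.23 (SE 0.16, adjusted p = 3.41e-07). Tyms, thymidylate synthase, was at 55.7, 47.6 and 49.2 CPM and 64.4, 64.6 and 56.0 CPM in bone marrow, and at 2.44, 2.199 and 2.701 CPM and 2.96, 1.76 and 1.02 CPM in blood, with changes of -4.39 and -4.97.

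Of the 5 genes of the fork, chromatin and repair, 4 fell in control and 5 in Atg5-knockout mice, and their medians of -1.84 and -2.31 were the nearest to 0 of the 8 roles. Pcna, the sliding clamp, was at 201, 207 and 188 CPM in control and 239, 244 and 213 CPM in Atg5-knockout bone marrow. In blood it kept 62.8, 85.4 and 67.7 CPM and 74.6, 96.3 and 106 CPM, a log2 fold change of -1.48 (SE 0.17, adjusted p = 3.71e-04) and -1.32 (SE 0.15, adjusted p = 1.71e-04). Uhrf1, which carries DNA methylation through replication, was at 113, 76.3 and 89.8 CPM and 105, 129 and 109 CPM in bone marrow, and at 9.21, 2.95 and 3.39 CPM and 10.1, 2.39 and 2.504 CPM in blood, with changes of -4.19 and -4.48. In blood its levels in the libraries numbered 1 stood above those of the others. Chaf1b, a subunit of the histone chaperone CAF-1, was at 19.02, 19.3 and 19.1 CPM and 24.8, 25.01 and 20.6 CPM in bone marrow, and at 5.37, 4.88 and 5.89 CPM and 6.56, 2.89 and 4.60 CPM in blood, with changes of -1.84 and -2.31. Fen1 was at 3.10, 1.33 and 1.62 CPM and 1.91, 3.06 and 2.32 CPM in bone marrow, and at 2.26, 0.528 and 0.688 CPM and 0.900, 1.04 and 0.767 CPM in blood. Its groups overlapped in control mice, where it was the 1 gene not called, with a log2 fold change of -0.84 (SE 0.62, adjusted p = 0.330). It was called in Atg5-knockout mice, with -1.41 (SE 0.37, adjusted p = 0.0120). Of the exon bases of Fen1, 84.2% also belong to other genes, Tmem258 and Gm10143, whose shared reads were not counted, so that its level is uncertain.

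The 7 G1/S cyclins, Cdk2 and transcription factors fell in both genotypes, with medians of -2.75 and -2.91. Cdk2, the kinase of cyclins E and A, was at 96.5, 85.8 and 89.3 CPM and 100.3, 113 and 111 CPM in control and Atg5-knockout bone marrow, and at 40.7, 48.1 and 42.7 CPM and 41.5, 53.2 and 48.0 CPM in blood, with log2 fold changes of -1.06 (SE 0.15, adjusted p = 0.00111) and -1.17 (SE 0.13, adjusted p = 1.60e-04). E2f1, a factor that activates S phase genes, was at 37.3, 38.5 and 37.9 CPM and 40.7, 38.7 and 38.7 CPM in bone marrow, and at 15.6, 17.6 and 12.9 CPM and 15.99, 15.4 and 16.5 CPM in blood, with changes of -1.31 and -1.29. E2f8, an E2F that represses, was at 45.9, 34.3 and 44.5 CPM and 40.5, 57.4 and 46.4 CPM in bone marrow, and at 4.27, 2.77 and 2.90 CPM and 3.04, 1.85 and 1.58 CPM in blood. It changed by -3.67 and -4.45, so that the fitted values of the 2 E2F genes of the list lay apart, which was not tested. Foxm1 and Mybl2, which drive the mitosis genes, changed by -3.99 and -3.22 in control mice.

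The 11 mitotic cyclins, kinases and chromosomal passengers all fell, with medians of -4.48 and -4.66. Cdk1, the kinase that starts mitosis, was at 126, 158 and 126 CPM in control and 163, 159 and 139.9 CPM in Atg5-knockout bone marrow. In blood it was at 4.45, 4.09 and 8.01 CPM and 3.34, 3.43 and 2.61 CPM, a log2 fold change of -4.64 (SE 0.29, adjusted p = 1.83e-05) and -5.60 (SE 0.17, adjusted p = 3.41e-07). Its partner Ccna2 was at 126, 126 and 125 CPM and 142, 159 and 132 CPM in bone marrow, and at 7.75, 3.43 and 5.60 CPM and 5.70, 1.99 and 2.56 CPM in blood, with changes of -4.51 and -5.37. By the fitted values, Cdk1 thus changed more between the tissues than Cdk2, whose protein shares this cyclin. Birc5, survivin of the chromosomal passenger complex, was at 116, 136 and 117 CPM and 149, 135 and 119 CPM in bone marrow, and at 5.06, 4.80 and 5.89 CPM and 7.63, 4.47 and 3.22 CPM in blood, with changes of -4.56 and -4.69. For Cdc25c the fitted changes of -6.77 and -5.60 rest on 5 counts in the 3 control and 17 counts in the 3 Atg5-knockout blood libraries.

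The 6 genes of the spindle checkpoint and anaphase fell in both genotypes, with medians of -4.17 and -5.001. Ube2c, the ubiquitin-conjugating enzyme of the anaphase-promoting complex, was at 147, 193 and 147 CPM and 179.5, 196 and 158 CPM in bone marrow, and at 42.7, 8.27 and 12.8 CPM and 7.63, 7.95 and 7.05 CPM in blood. Control blood replicate 1, the library rich in red cell RNA, was above every other blood library, and the gene changed by -2.95 (SE 0.54, adjusted p = 0.00369) in control and -4.54 (SE 0.15, adjusted p = 3.41e-07) in Atg5-knockout mice. Mad2l1, the checkpoint protein MAD2, was at 88.9, 93.9 and 93.9 CPM and 97.1, 113 and 93.2 CPM in bone marrow, and at 7.63, 8.49 and 10.5 CPM and 6.56, 8.90 and 12.4 CPM in blood, with changes of -3.39 and -3.44. Cdc20, which activates the anaphase-promoting complex, was at 83.7, 85.7 and 81.2 CPM and 98.9, 90.4 and 82.7 CPM in bone marrow, and at 2.32, 3.56 and 4.37 CPM and 3.04, 2.35 and 1.28 CPM in blood, with changes of -4.61 and -5.32.

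Among the 8 kinesins and spindle genes, all fell, with medians of -4.09 and -4.78. Kif11, the motor that pushes the spindle poles apart, was at 144, 127 and 134 CPM and 159, 181 and 151 CPM in bone marrow, and at 12.1, 6.16 and 5.60 CPM and 8.19, 4.61 and 4.09 CPM in blood, with log2 fold changes of -4.10 (SE 0.31, adjusted p = 3.40e-05) and -4.84 (SE 0.26, adjusted p = 2.84e-06). Tpx2, an activator of Aurora A on the spindle, was at 117, 102 and 97.6 CPM and 128, 135 and 125 CPM in bone marrow, and at 6.71, 3.52 and 3.54 CPM and 3.94, 2.57 and 3.68 CPM in blood. Nusap1, which bundles spindle microtubules, was at 94.3, 95.4 and 105 CPM and 109.8, 118 and 104 CPM in bone marrow, and at 19.8, 3.08 and 6.73 CPM and 6.69, 3.57 and 5.06 CPM in blood, again with control blood replicate 1 the highest. Their changes were -4.55 and -5.23 for Tpx2 and -3.34 and -4.42 for Nusap1. The exception in size was Kif23, a midzone kinesin of cytokinesis, which changed by -1.57 and -1.41.

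The 5 genes of the centromere and mitotic chromosome all fell, with medians of -4.21 and -4.90. Mki67, the Ki-67 antigen of dividing cells, was at 444, 308 and 373 CPM in control and 503, 540.4 and 452 CPM in Atg5-knockout bone marrow. In blood it was at 62.7, 22.2 and 29.9 CPM and 41.2, 22.9 and 19.8 CPM, a log2 fold change of -3.31 (SE 0.38, adjusted p = 3.58e-04) and -4.14 (SE 0.28, adjusted p = 9.98e-06). Top2a, topoisomerase II of condensing chromosomes, was at 441, 322 and 356 CPM and 468, 545 and 462 CPM in bone marrow, and at 26.1, 8.45 and 18.02 CPM and 29.9, 10.6 and 7.36 CPM in blood, with changes of -4.43 and -4.92. For both genes the blood library numbered 1 was the highest of its genotype. Cenpa, the histone H3 variant of the centromere, was at 93.8, 113 and 102 CPM and 125, 126 and 107 CPM in bone marrow, and at 32.3, 36.9 and 46.7 CPM and 29.6, 33.1 and 38.3 CPM in blood. It changed by -1.43 and -1.81, less than the other 4 of this group.

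In sums over genes, replication and mitosis genes fell to a different extent. The 20 genes of licensing, nucleotide supply and the fork summed to 1923, 1827 and 1795 CPM in control bone marrow and to 336.5, 266 and 302 CPM in control blood, 6.13 times less by the group means. The 30 genes of the 4 mitosis groups summed to 2954, 2675 and 2696 CPM in control bone marrow and to 311, 175 and 233 CPM in control blood, 11.6 times less. In Atg5-knockout mice the bone marrow means were 7.52 times the blood means for the replication genes and 17.6 times for the mitosis genes. The ratio of replication to mitosis genes within a library was 0.651, 0.683 and 0.666 in control and 0.666, 0.663 and 0.627 in Atg5-knockout bone marrow. It was 1.08, 1.52 and 1.29 in control and 1.51, 1.54 and 1.55 in Atg5-knockout blood, so that every blood library was above every bone marrow library. Control blood replicate 1 had the lowest ratio in blood. The sum of the replication genes in blood is carried by a few members that fell less, since Pcna and Mcm4 alone had means of 72.0 and 42.3 CPM in control blood. The nucleotide supply genes among them went from 476.0, 468 and 468 CPM in control bone marrow to 45.7, 23.4 and 36.4 CPM in control blood, and their medians of -4.03 and -4.67 stood beside role medians of -4.09 to -4.48 and -4.66 to -5.001 for mitosis. As the groups of genes were drawn up with results of these libraries known, this ratio is a description without a test.

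**Figure D3:**
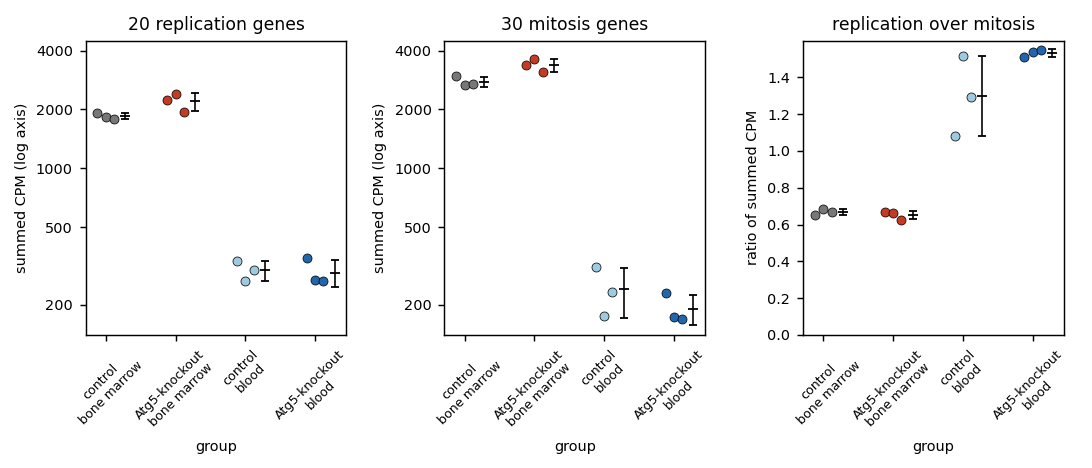
Summed CPM of the 20 replication genes (left, log axis) and of the 30 mitosis genes (middle, log axis), and their ratio (right, linear axis), in each library of the 4 groups. Points are libraries and the lines beside them the mean and SD of 3, and the ratio is at most 0.683 in any bone marrow library and at least 1.08 in any blood library.

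Markers of other cells moved with the tissue as well. Neutrophil and precursor genes took 1.13 to 1.47% of the counts in control and 1.44 to 1.48% in Atg5-knockout bone marrow, against 0.520 to 0.699% and 0.399 to 0.604% in blood. Of the 12 genes of this list, 6 were called lower in control blood and 0 higher, and 8 lower and 1 higher in Atg5-knockout blood. Elane, Mpo, Prtn3 and Ctsg, granule genes of early neutrophil precursors, stood at 190.0 to 1554 CPM in bone marrow and at 0.511 to 9.27 CPM in blood. Genes of progenitors took 0.0192 to 0.0266% in bone marrow and 0.00548 to 0.0173% in blood, and basophil and mast cell genes 0.0265 to 0.0324% and 0.00988 to 0.0143%, with Tpsb2 at 0 throughout. The eosinophil list itself took 8.04 to 10.3% in bone marrow and 1.80 to 4.05% in blood. Its 10 genes did not move together, with 6 called lower and 2 higher in blood in each genotype. Over all tested genes, 18% and 24.1% were called lower and 16.2% and 23.5% higher. Prg2 had means of 45200 CPM in control bone marrow and 16280 CPM in control blood. Siglecf went from 442 to 851 CPM and Ccr3 from 992 to 1576 CPM. B cell genes took 0.00408 to 0.00579% in bone marrow and 0.00106 to 0.0902% in blood, and T cell genes 0.000720 to 0.000947% and 0.00276 to 0.0347%, with Cd3e at 0 in bone marrow. Monocyte and macrophage genes took 0.260 to 0.303% and 0.294 to 0.319%, and platelet genes 0.0170 to 0.0239% and 0.00713 to 0.0386%. Genes of the monocyte and macrophage list were unlike in level. Adgre1 had means of 770 and 1456 CPM in control bone marrow and blood, and C1qa 0.873 and 0.182 CPM. Which cells carried these RNAs was not tested. The part of the cells of the lists in the fall of the cell cycle genes was not tested either.

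**Figure D4:**
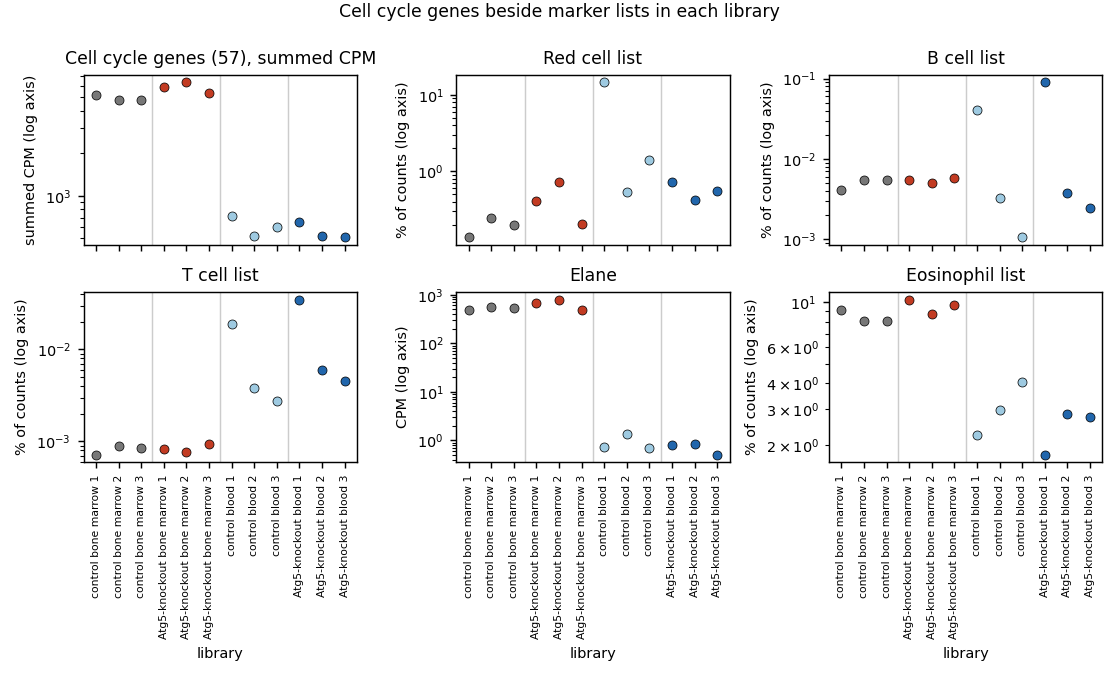
Summed CPM of the 57 genes, share of counts (%) of the red cell, B cell, T cell and eosinophil lists, and CPM of Elane in each of the 12 libraries (log axes), with libraries coloured by group. Elane and the cell cycle genes are high in all bone marrow and low in all blood libraries, and the red cell list reaches 14.6% in control blood replicate 1. Elane is 1 of 12 neutrophil genes and does not stand for its list. Fitted values, blood over bone marrow, were below 0 for 10 and above 0 for 2 of them in control mice, and for 9 and 3 in Atg5-knockout mice. Mmp9, for example, had means of 409 CPM in control bone marrow and 645 CPM in control blood.

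The second comparison asked which of the genes differed between Atg5-knockout and control eosinophils of the bone marrow. None of the 57 was called at an adjusted p under 0.05 by edgeR or by DESeq2, where edgeR called 0.145% of all 13781 tested genes higher and 0.203% lower. All 57 nevertheless had a fitted log2 fold change above 0, as 50.6% of all genes did, with a median of 0.23 against 0.003 and a range from 0.017 for Mcm4 to 0.49 for Kif20a. At an unadjusted p under 0.05, 25 were higher and 0 lower, against 4.36% and 5.31% of all genes. In 27 the 3 Atg5-knockout libraries were all above the 3 control libraries, against 8.69% of all genes. The role medians ran from 0.17 for the mitotic cyclins and kinases to 0.37 for the centromere group. Atg5-knockout replicate 2 was the highest of the 6 libraries for 45 of the 57 genes, and without it the median was 0.18 and 4 genes were at an unadjusted p under 0.05. This number was 0 in the fit on all 12 libraries and 16 with the replicate number as a block. It was 11 without Atg5-knockout replicate 1, 7 without control replicate 2 and 6 without control replicate 3. Without Atg5-knockout replicate 3 or without control replicate 1 it was 29, and with library size alone it was 30. The share of all genes at this level was taken from the main fit alone. With any 1 of the 6 libraries left out, 55 to 57 members had fitted values above 0.

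The lowest p among the members was that of Cenpe, the kinesin that carries chromosomes to the metaphase plate. It was at 53.2, 35.5 and 42.2 CPM in control and 60.1, 65.5 and 58.5 CPM in Atg5-knockout bone marrow, so that the groups did not overlap, with a log2 fold change of 0.46 (SE 0.13, unadjusted p = 0.00473, adjusted p = 0.244). Bub1b, the checkpoint kinase-like protein BUBR1, was at 80.4, 59.1 and 68.1 CPM and 90.2, 94.6 and 85.8 CPM, also without overlap, with 0.35 (SE 0.12, unadjusted p = 0.0104, adjusted p = 0.331). Top2a followed with 0.37 (SE 0.13, unadjusted p = 0.0120, adjusted p = 0.350), from the levels given above, and the groups did not overlap. In blood, Cenpe was at 4.09, 1.06 and 1.28 CPM and 2.49, 1.90 and 0.0511 CPM and Bub1b at 7.75, 3.87 and 3.39 CPM and 5.62, 3.16 and 1.48 CPM, with overlap in both. Without control bone marrow replicate 1, edgeR called 3 members higher, Cenpe (adjusted p = 0.0215), Prc1 (0.0316) and Kif20a (0.0366), named after their values were seen. That fit called 79 of all 14165 tested genes higher and 140 lower. Prc1 and Kif20a are midzone proteins of cytokinesis. The fit without a filter on low counts called the same 3 members, and 161 of all 24522 genes higher and 259 lower.

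Values of the red cell list lay in the same direction in bone marrow. All 13 of its genes had a fitted log2 fold change above 0, with a median of 1.35 and 1 called, and they took 0.138, 0.250 and 0.200% of the counts in control and 0.413, 0.728 and 0.204% in Atg5-knockout libraries. Klf1, a transcription factor of red cell precursors, was at 1.58, 1.44 and 1.29 CPM and 2.49, 7.44 and 3.13 CPM. Elane was at 492, 550.1 and 521 CPM and 669.5, 791 and 484 CPM. Atg5-knockout replicate 2 was thus the highest library for the red cell list, Klf1, Elane and the summed cell cycle genes. The neutrophil list as a whole, to which Elane belongs, did not follow it, with 1.13, 1.47 and 1.40% of counts in control and 1.44, 1.47 and 1.48% in Atg5-knockout libraries. Its other early granule genes were split. Mpo was at 1025, 1238 and 1198 CPM and 1365, 1554 and 1032 CPM. Prtn3 was at 425, 573 and 516 CPM and 696, 804 and 487 CPM, both highest in Atg5-knockout replicate 2. Ctsg was at 196, 277 and 262 CPM and 269, 266 and 190.0 CPM. The part of other dividing cells in the difference was not tested. Of the other lists in bone marrow, none had a called gene, and the fitted values were above 0 for 6 of 8 progenitor, 9 of 10 platelet, 5 of 12 neutrophil, 7 of 10 eosinophil, 5 of 10 monocyte and macrophage, 6 of 8 B cell, 1 of 3 T cell and 2 of 5 basophil and mast cell genes tested.

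**Figure D5:**
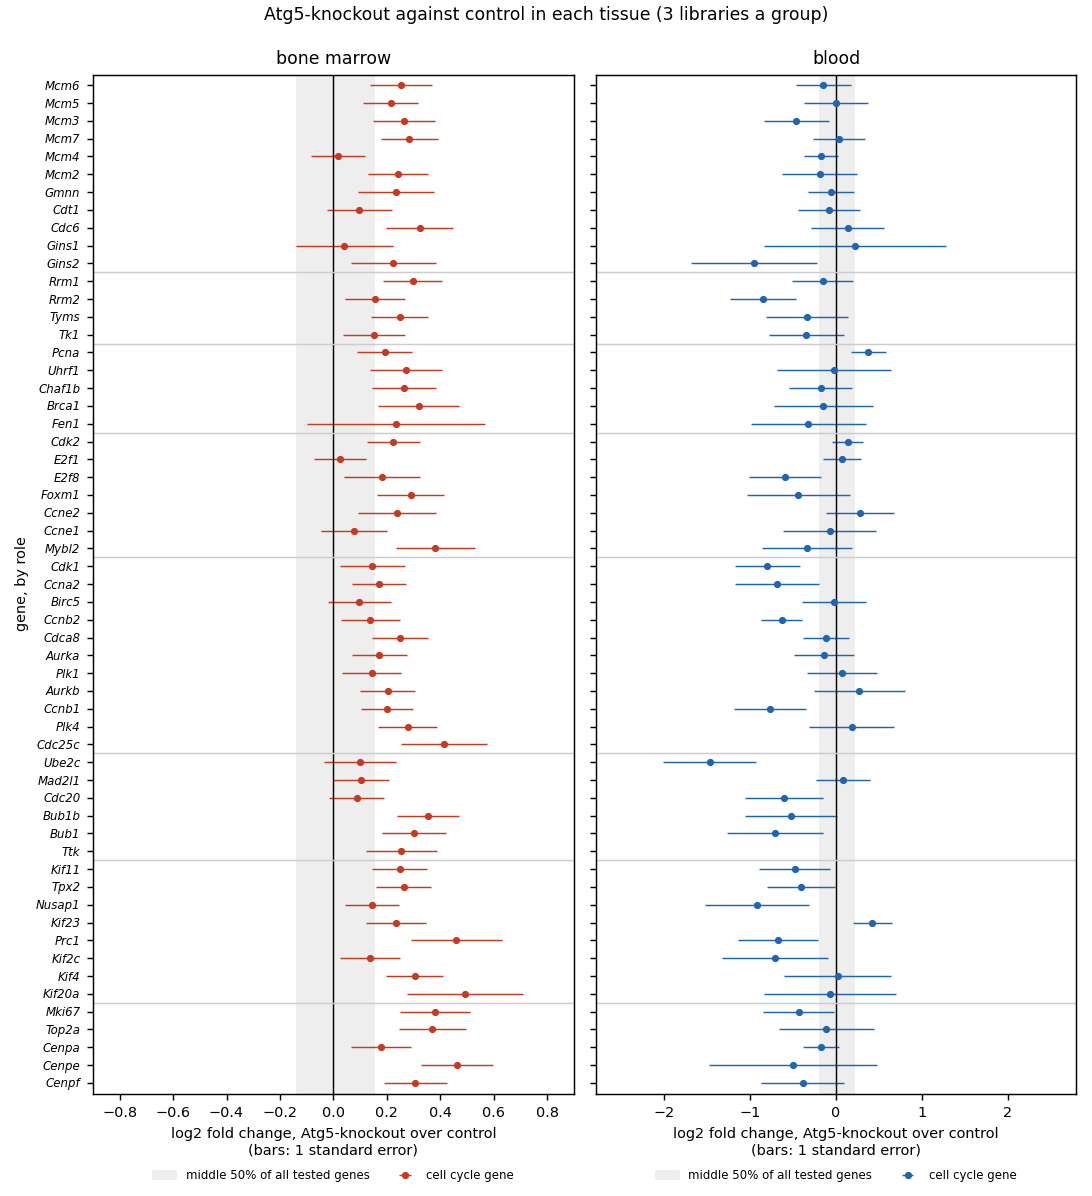
Log2 fold change of Atg5-knockout over control for the 57 genes in bone marrow (left) and the 55 tested in blood (right), with bars of 1 standard error (edgeR, 3 libraries a group), on axes of different width. The grey band holds the middle 50% of all tested genes, -0.14 to 0.15 on the left and -0.18 to 0.21 on the right, and all points on the left lie above 0.

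In blood, the same comparison could be fitted for 55 members, since Cdc25c and Ttk did not pass the filter on low counts. None was called by edgeR or by DESeq2, where edgeR called 0.0371% of all 13460 tested genes higher and 0% lower. The fitted log2 fold change was above 0 for 14 members and below 0 for 41, where 51.1% of all genes were above 0, with a median of -0.18 against 0.006 for all genes. Of the members, 2, both lower, were at an unadjusted p under 0.05, against 1.48% of all genes. With the replicate number as a block, none was called and 6 were at an unadjusted p under 0.05. The share of all genes was not taken for that fit. In 4 members, Ube2c, Ccnb2, Ccnb1 and Cdk1, the 3 Atg5-knockout libraries were all below the 3 control libraries, against 4.05% of all genes. The median moved from -0.62 without Atg5-knockout blood replicate 1 to -0.02 without control blood replicate 1, where 26 members were above 0 and 29 below, and was -0.31 without both.

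Ube2c had the lowest p in blood, with a log2 fold change of -1.47 (SE 0.54, unadjusted p = 0.0249, adjusted p = 1), and the 42.7 CPM of control blood replicate 1 stood against 7.05 to 12.8 CPM in the other 5 libraries. Without that library the log2 fold change of Ube2c was -0.46. Ccnb2, a B-type cyclin, followed. It was at 12.3, 10.6 and 11.69 CPM in control and 7.93, 7.50 and 6.49 CPM in Atg5-knockout blood, a log2 fold change of -0.64 (SE 0.24, unadjusted p = 0.0286, adjusted p = 1). In bone marrow Ccnb2 was at 95.2, 114 and 94.5 CPM and 116, 119.9 and 105 CPM, with overlap. Rrm2 came next with -0.85 (SE 0.38, unadjusted p = 0.0544, adjusted p = 1). In the marker lists, all 9 red cell genes and all 10 platelet genes tested had fitted values below 0, and all 9 B cell and all 8 T cell genes above 0. Red cell and platelet shares were highest in control blood replicate 1, at 14.6% and 0.0386% of counts. B cell and T cell shares were highest in Atg5-knockout blood replicate 1, at 0.0902% and 0.0347%. These fitted values come from the main fit, which holds both libraries. Of the other lists, fitted values were above 0 for 1 of 10 eosinophil, 3 of 12 neutrophil, 4 of 9 monocyte and macrophage, 2 of 6 basophil and mast cell and 3 of 7 progenitor genes, and no gene of the 9 lists was called. The part of these cells in the values of the cell cycle genes was not tested.

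The third comparison was the difference of the genotype effect between the tissues, tested as an interaction over all 12 libraries. No gene was called (0% of all 14712 tested), and none of the 57 members by DESeq2 either. The difference, blood minus bone marrow, was below 0 for 52 of the 57 genes, where 46.3% of all genes were above 0, with a median of -0.51 against -0.037 for all genes. Of the members, 10 were at an unadjusted p under 0.05, all lower, against 3.17% of all genes. Without the 2 blood libraries numbered 1, the median was -0.58 and 27 members were at an unadjusted p under 0.05, with none called. The median ran from -0.84 without Atg5-knockout blood replicate 1, where 32 members were at an unadjusted p under 0.05, to -0.27 without control blood replicate 1, where 8 were. Without control blood replicate 2 this number was 18, and without Atg5-knockout bone marrow replicate 2 it was 6. The share of all genes at this level was taken from the main fit alone. The lowest p was that of Ccnb2, with a difference of -0.82 (SE 0.19, unadjusted p = 8.99e-04, adjusted p = 0.852). Ccnb1, the cyclin B that CDK1 mainly binds, was at 56.1, 57.9 and 60.8 CPM in control and 70.0, 69.9 and 65.02 CPM in Atg5-knockout bone marrow, and at 3.78, 2.46 and 2.65 CPM and 2.06, 1.85 and 1.23 CPM in blood. It was the 1 member in which the Atg5-knockout libraries were all above the control libraries in bone marrow and all below them in blood. The share of all genes with this double pattern was not counted, so the pattern does not set Ccnb1 apart. The difference of Ccnb1 was -1.0 (SE 0.27, unadjusted p = 0.00289, adjusted p = 0.852). Cdk1 differed by -0.99 (SE 0.32, unadjusted p = 0.00764, adjusted p = 0.861), and by 0.15 in bone marrow and -0.80 in blood taken alone. The role medians ran from -0.19 for the G1/S group to -0.85 for the spindle checkpoint. Fitted values of some marker lists lay on 1 side here too. The difference was below 0 for all 13 red cell genes (median -4.65, 10 at an unadjusted p under 0.05) and all 10 platelet genes (median -2.85, 9 at an unadjusted p under 0.05), and above 0 for 9 of 10 B cell and 8 of 8 T cell genes. In control blood the red cell list took 14.6, 0.539 and 1.42% of counts and the platelet list 0.0386, 0.0105 and 0.0156%, both highest in replicate 1. The values of the lists come from the main fit, which holds that library. The difference was also below 0 for 7 of 8 progenitor, 9 of 12 neutrophil, 7 of 10 eosinophil, 7 of 10 monocyte and macrophage and 2 of 6 basophil and mast cell genes, with no gene called, and the part of these cells in the difference was not tested.

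Other genes of the cell cycle were taken from 4 lists that share no member with the 57. Of 34 origin and fork genes, 30 were lower in blood in control and 32 in Atg5-knockout mice, and none higher. Of all tested genes, 18% and 24.1% were called lower in blood and 16.2% and 23.5% higher. Rpa1, the large subunit of the single-strand binding protein RPA, was at 129.9, 143 and 137 CPM and 139.9, 151 and 129.5 CPM in control and Atg5-knockout bone marrow, and at 75.3, 78.6 and 71.2 CPM and 70.7, 62.5 and 66.6 CPM in blood, with log2 fold changes of -0.87 (SE 0.14, adjusted p = 0.00217) and -1.06 (SE 0.12, adjusted p = 1.51e-04). Rfc2, a subunit of the clamp loader, was at 108, 148 and 123 CPM and 129.8, 124 and 116 CPM in bone marrow, and at 93.6, 162 and 125 CPM and 102, 147 and 118 CPM in blood. Its groups overlapped, with -0.0050 (SE 0.23, adjusted p = 0.989) and 0.0020 (SE 0.15, adjusted p = 0.994). Of 32 further mitosis genes, 28 and 31 were lower in blood and 1 was higher. That gene was Pttg1, securin, named after its values were seen, with log2 fold changes of 1.19 (SE 0.21, adjusted p = 0.00335) and 1.59 (SE 0.20, adjusted p = 2.87e-04). Smc4, a condensin subunit, was at 190.2, 154 and 175 CPM and 175, 225 and 199.6 CPM in bone marrow, and at 50.2, 38.6 and 27.9 CPM and 57.2, 45.8 and 40.5 CPM in blood. Bub3, a checkpoint protein, was at 155, 162 and 145 CPM and 149, 146 and 148 CPM in bone marrow, and at 63.2, 91.3 and 85.6 CPM and 66.3, 78.4 and 84.9 CPM in blood. The changes were -2.17 and -2.05 for Smc4 and -0.96 and -0.93 for Bub3.

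The genes upstream of S phase split. Of 17 D-type cyclins, pocket proteins and E2F genes, 9 were lower in blood in control and 12 in Atg5-knockout mice, and none was higher. The shares over all tested genes were 18% and 24.1% lower. Ccnd3, a D-type cyclin, was at 490.1, 331 and 329 CPM and 344, 333 and 401 CPM in bone marrow, and at 297, 398 and 395 CPM and 309, 361 and 330.1 CPM in blood, with overlap and changes of -0.089 (SE 0.21, adjusted p = 0.771) and -0.10 (SE 0.13, adjusted p = 0.569). E2f2, an activating E2F, was at 207, 157 and 180.1 CPM and 208, 238 and 236 CPM in bone marrow, and at 132, 67.9 and 56.97 CPM and 83.3, 55.1 and 41.4 CPM in blood, with -1.09 and -1.91. Among 12 CDK inhibitors and antiproliferative genes the direction was mostly the other way, with 6 higher and 1 lower in control and 7 higher and 1 lower in Atg5-knockout blood. The shares over all tested genes were 16.2% and 23.5% higher. Btg1, an antiproliferative gene of quiescent cells, was at 187, 221 and 204 CPM and 199, 169 and 198 CPM in bone marrow and at 1936, 2114 and 1729 CPM and 2219, 2483 and 3609 CPM in blood, a log2 fold change of 3.23 (SE 0.18, adjusted p = 1.09e-05) and 3.89 (SE 0.21, adjusted p = 3.02e-06). Cdkn1a, the CDK inhibitor p21, rose from 70.4, 47.0 and 54.8 CPM and 43.3, 46.3 and 64.6 CPM to 342, 442 and 314 CPM and 472, 381 and 675 CPM, a change of 2.66 (SE 0.22, adjusted p = 5.36e-05) and 3.33 (SE 0.25, adjusted p = 1.70e-05). For both genes no blood library overlapped a bone marrow library. The 1 that fell was Cdkn2c, the INK4 inhibitor p18, named after its values were seen, with -2.36 (SE 0.27, adjusted p = 3.54e-04) and -2.98 (SE 0.19, adjusted p = 7.20e-06). No gene of the 4 lists was called between the genotypes in either tissue or in the interaction.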

How the data were processed

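RNA of eosinophils from bone marrow and blood of control and Atg5-knockout mice was measured in 12 libraries, 3 for each of 4 groups. The authors aligned 100 base single-end reads with HISAT2 2.2.1 and deposited raw counts per gene from featureCounts 2.0.1, without normalization. The table's header names Ensembl release 92 on GRCm38, which its coordinates follow, whereas the Methods name GRCm39. The header gives no strand option and none for reads on several genes. Reads on exons shared by several genes, on either strand, were therefore not counted. After the 84.2% of Fen1, the highest shares of such exon bases among the members were 67.3% (Gins2), 33.2% (Kif20a) and 22.8% (Ube2c). The header also gives an option for paired ends, which single reads do not call for, and only the Methods say that reads were counted. Symbols came from GENCODE M39, which named 49674 of the 53801 identifiers, and promoter sequences from RefSeq (GRCm38.p6), which held 46 of the 57 members. Ccna2, Ccne2, Cdc25c, Aurkb, Kif20a, Tpx2, Foxm1, Mcm4, Gins1, Gins2 and Gmnn had no entry. For a gene with several windows, the one nearest to its start in the count table was used.

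Each comparison was fitted on its own 6 libraries (the interaction on all 12) with edgeR 4.0.16 in R 4.3.3: TMM factors, filterByExpr at its defaults (minimum count 10, minimum total count 15) and the quasi-likelihood test, with Benjamini-Hochberg adjustment over all tested genes. The threshold for a call was an adjusted p of 0.05. The fits were tested on simulated counts. Biological coefficients of variation were 0.146 between genotypes in bone marrow and 0.365 in blood, and 0.286 and 0.236 between tissues in control and Atg5-knockout mice. Standard errors were taken from the fold change and the square root of the test's F. Levels are CPM, and p-values measure the spread between libraries, which by the series' design come from 3 mice a genotype. Bone marrow and blood libraries would thus share mice, which the tissue and interaction fits leave out of account, and the replicate block was fitted as an alternative. Replicates differed by more than sampling noise, the chi-square divided by its degrees of freedom being at least 15.6 in all 12 pairs.

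Values in every library are given for the 3 members of highest mean CPM in each role, the 3 of lowest p in each genotype comparison, uncalled members of a tissue comparison, and the 2 genes of highest mean CPM in each pathway list. The members, roles, lists and tests were chosen with earlier results of these data known. Replicate numbers were checked for pairing by correlating deviations from group means. Atg5-knockout and control blood libraries of the same number gave 0.499, 0.208 and 0.298. Those of different numbers gave -0.408 to 0.137, with 0.137 and 0.121 between numbers 2 and 3. Same-numbered blood libraries thus deviated together, most of all those numbered 1. These values do not settle whether the numbers mark pairs, and no source says what they share. Bone marrow libraries gave -0.147, -0.105 and 0.0041, and pairs of tissues lay between -0.105 and 0.129.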

Additional observations from a re-analysis of the deposited data

How the results depend on the processing

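The alternatives were RLE size factors, library size alone, no filter on low counts, a filter of 1 CPM in 3 libraries, DESeq2 1.42.0, the replicate block, all 12 libraries in a fit and leaving out each replicate, and, chosen after seeing the data, both blood libraries numbered 1 left out together. In the tissue comparisons the number of members called lower stayed at 56 or 57 throughout, and none was called higher. Between the genotypes in bone marrow, no filter called 3 members higher instead of 0, and leaving out 1 replicate gave 0 to 3, the 3 coming without control bone marrow replicate 1. In the interaction, no filter called 1 member, Ube2c, lower (log2 difference -1.63, adjusted p = 0.000867 from edgeR). Library size alone moved the summed level of the 57 genes to 5360 CPM in control and 6462 CPM in Atg5-knockout bone marrow. The cause was not tested in any of these cases. Among single members, Fen1 was called in control mice without control blood replicate 1 and lost its call in Atg5-knockout mice without Atg5-knockout bone marrow replicate 2 (log2 fold change -1.22, adjusted p = 0.0831). The replicate block changed no call of a member in any comparison. With it, the medians were 0.24 in bone marrow and -0.25 in blood between the genotypes, -3.69 and -4.45 between the tissues in control and Atg5-knockout mice, and -0.53 in the interaction. What bone marrow libraries of the same number share is not known.

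Library size alone moved the median of all genes to -0.31 in control and -0.24 in Atg5-knockout mice, and the split of calls between the tissues from 2212 higher and 2466 lower to 1308 and 3906, and from 3256 and 3336 to 2258 and 4333. Over all genes, the 20 higher and 28 lower calls between the genotypes in bone marrow became 161 and 259 with no filter, 59 and 133 with DESeq2, 11 and 12 with the replicate block and 7 and 5 with all 12 libraries, and leaving out 1 replicate gave 9 to 79 and 9 to 140. In blood, 5 and 0 became 18 and 59 with no filter, 15 and 8 with DESeq2, 7 and 3 with the block and 12 and 4 with all 12 libraries. In the interaction, 0 and 0 became 16 and 103 with no filter and 3 and 8 with DESeq2. Leaving out 1 bone marrow replicate of the control mice left 1163 to 1402 higher and 1464 to 1665 lower between the tissues.

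Low counts limit some blood values: 5 to 17 counts of Cdc25c and 22 to 29 of Ttk stood behind the 3 blood libraries of a genotype. The reads carry no molecular identifiers and are not counts of separate molecules.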
